A study of Rattus norvegicus with 119 samples.

Results

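Rosiglitazone was compared with vehicle in the bladder urothelium, the epithelium that lines the bladder, of Sprague-Dawley rats after 28 days of daily oral dosing. The comparison rests on 20 of the 119 arrays of the series, with 1 animal on each array. They were chosen by their labels: 5 females and 5 males given rosiglitazone maleate at 10 mg/kg/day (Rosi_10mgkg_F_28d and Rosi_10mgkg_M_28d), and 5 females and 5 males given methylcellulose alone (Control_F_28d and Control_M_28d). The submitters marked all 20 as passing quality control. Rats of every group were killed 1 day after the last dose, and the lining was scraped from the opened bladder with a scalpel, so a sample is a scraping and not a sorted cell type. The labels name no disease model or mutation, and no source used here gives the animals' age. Messenger RNA was measured on 1-colour Agilent arrays labelled with Cy3. The other arrays of the series, from rats dosed for 3 or 90 days or given pioglitazone at 16 or 63 mg/kg/day, were used to estimate the spread between animals and to set the values at 28 days beside those of other times and treatments.

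Rosiglitazone is a thiazolidinedione, a class of oral drugs that lower blood glucose. It binds and activates PPAR-gamma, a nuclear receptor that pairs with RXR receptors, sits on paired copies of a short DNA element near its target genes and raises their transcription when a ligand is bound. In fat cells the receptor drives lipid uptake and storage. Urothelial cells also express it, and there it is known for promoting the differentiation of the superficial umbrella cells, which carry the uroplakin plaques of the urine-facing membrane.

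The markers of the labelled tissue were strong on every array, and signal of deeper layers was present in varying amounts. The uroplakin genes Upk1a, Upk1b, Upk2 and Upk3a, which define umbrella cells, had log2 signals from 15.46 to 18.47 on the rosiglitazone arrays and from 15.92 to 18.44 on the vehicle arrays. The mean over 13 smooth muscle markers was uneven: it ran from 7.57 to 10.3 in rosiglitazone females and 9.21 to 11.94 in vehicle females, and from 8.52 to 14.51 in rosiglitazone males and 7.83 to 14.94 in vehicle males. No smooth muscle marker passed the test, and the median difference of the list was -1.06 (log2), -2.04 in females and 0.41 in males. Of the 22 fibroblast and matrix genes none passed either (median -0.69), and none of the 25 leukocyte genes (median -0.38), of which 22 were below 0 and Cd74 and RT1-Db1 had the smallest adjusted p (0.0913, limma). At an unadjusted p under 0.05, 0 of the smooth muscle, 1 of the fibroblast and 11 of the leukocyte genes passed, against 1454 of all 12713 tested genes (11.4%). The mean of the adipocyte list was 10.03, 9.49 and 10.98 in rosiglitazone female 3, male 2 and male 4, between 7.33 and 7.62 on the other 7 rosiglitazone arrays, and between 7.16 and 8.38 on the 10 vehicle arrays. In such bulk samples, fewer cells of a type and less RNA per cell cannot be told apart.

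**Figure D1:**
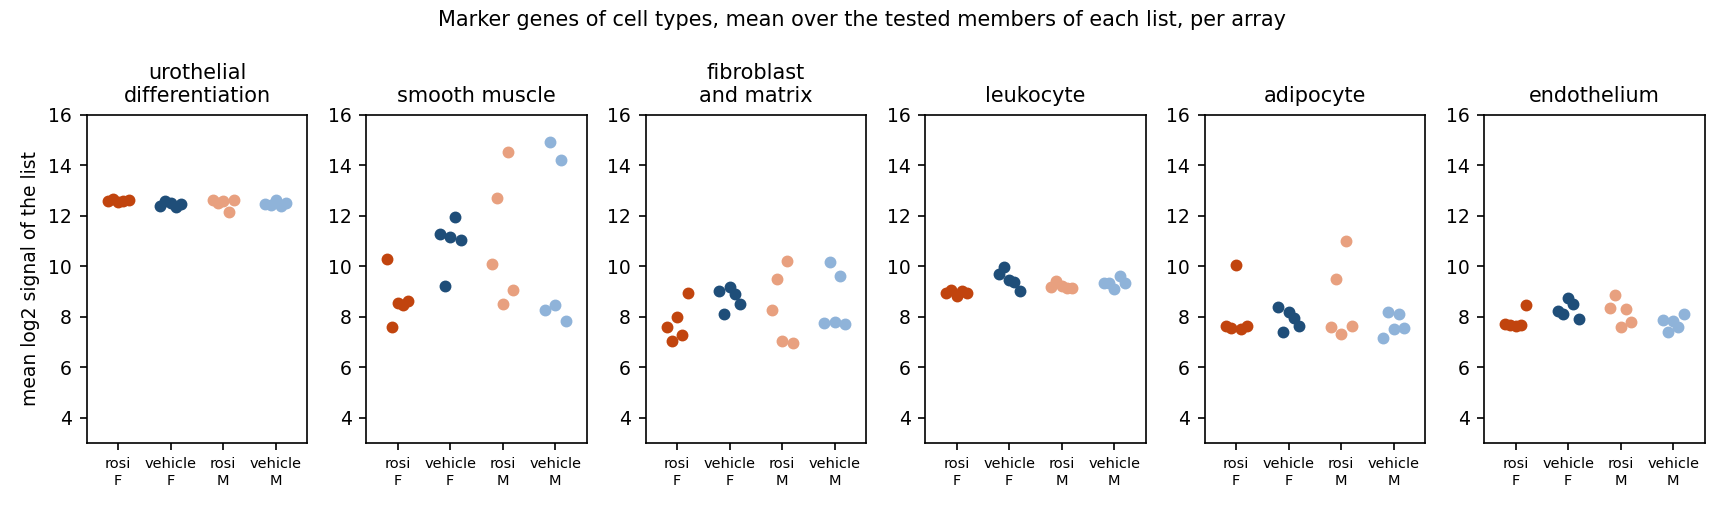
Mean log2 signal of the tested members of 6 gene lists on each of the 20 arrays (vertical axis), with rosiglitazone left of vehicle in females (F) and males (M). The urothelial list stays between 12.16 and 12.67 on every array, while the smooth muscle list runs from 7.57 to 14.94.

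A pair of rosiglitazone arrays also stood apart over all probes. Of the 20 arrays compared, male 3 and female 4 had the lowest median correlation with the other arrays (0.936 and 0.948, against at most 0.983 in the comparison). In male 3, 99 genes lay more than 3 log2 units above the other 4 arrays of its group and 71 lay as far below them. In female 4, 96 genes lay that far above and 3 below. The counts of changed genes are given with and without male 3 and female 4, chosen by their correlation. Among the other arrays, rosiglitazone male 4 and vehicle males 2 and 4, which had the highest smooth muscle means in males, had 171, 141 and 61 genes that far above. Their removal was tested only for each array in turn.

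After 28 days, 219 of 12713 tested genes (1.72%) differed between rosiglitazone and vehicle as the mean of both sexes, by limma at an adjusted p under 0.05. Of these, 111 genes rose (0.873%) and 108 fell (0.85%), by sizes from 0.22 to 2.95 and from 0.23 to 1.92 on the log2 scale, on which a difference of 1 is a 2-fold change. The median over all tested genes was 2e-04. More than 2-fold changes were seen in 36 of the risen and 20 of the fallen genes. Without male 3 and female 4, 68 genes rose and 49 fell, of which 59 and 45 were among those called with all arrays. Without rosiglitazone male 4 alone, 153 rose and 123 fell. When each of the 20 arrays was left out in turn, 55 of the risen and 47 of the fallen genes were called every time. On 15 of the risen genes every rosiglitazone array lay above every vehicle array of its sex, which held for 0.118% of all tested genes. On 10 of the fallen genes every rosiglitazone array lay below, which held for 0.0865% of all tested genes.

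The gene with the smallest p was Cpt1c, which codes for the brain-enriched member of the carnitine palmitoyltransferase family. Its log2 signals were 9.55, 10.19, 9.87, 9.54 and 9.19 in rosiglitazone females, against 7.26, 7.93, 7.3, 6.68 and 7.59 in vehicle females. In males they were 9.78, 9.09, 10.07, 9.19 and 10.23 with rosiglitazone, against 7.56, 7.14, 7.84, 7.57 and 7.36 with vehicle. The groups did not overlap in either sex, and the lowest rosiglitazone value, 9.09, lay above the highest vehicle value, 7.93. The difference was 2.25 ± 0.21 (log2, SE, 95% interval 1.83 to 2.66), a 4.75-fold rise with an adjusted p of 4.56e-14 in the limma fit, and it was 2.32 in females and 2.18 in males.

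Rgs17, a regulator that shortens G-protein signals, read 8.64, 9.01, 10.01, 9.57 and 8.61 in rosiglitazone females, against 6.84, 6.96, 6.4, 7.17 and 7.57 in vehicle females. In males its values were 8.62, 8.79, 7.91, 9.58 and 8.52 with rosiglitazone, against 6.62, 6.32, 6.66, 6.24 and 7.43 with vehicle. All 10 rosiglitazone arrays lay above all 10 vehicle arrays, and the rise was 2.10 ± 0.28 (log2, SE, adjusted p 8.99e-08, limma). Ramp1, which joins the calcitonin receptor-like receptor to form the receptor of the neuropeptide CGRP, read 14.81, 15.37, 15.08, 14.93 and 14.11 in rosiglitazone females, against 13.85, 13.48, 13.65, 13.64 and 13.86 in vehicle females. Male values were 15.58, 14.77, 15.72, 15.25 and 15.57 with rosiglitazone, against 13.4, 12.68, 13.34, 12.95 and 12.97 with vehicle. Its groups were apart in both sexes, and the rise of 1.74 ± 0.18 (log2, SE, adjusted p 1.07e-11, limma) was made up of 1.16 in females and 2.31 in males, a difference between the sexes that did not pass its own test (adjusted p 0.31). Gabbr1, part of the GABA-B receptor, rose by 1.45, with 7.21 to 9.35 on the rosiglitazone arrays and 6.44 to 7.81 on the vehicle arrays. Gpr115, an adhesion receptor, rose by 1.45 as well, with 7.21 to 9.12 against 6.10 to 8.25 (log2 signal, rosiglitazone against vehicle).

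Acaa1a, the peroxisomal thiolase that completes each round of beta-oxidation, read 15.67, 17.05, 16.08, 16.14 and 16.49 in rosiglitazone females, against 14.06, 14.64, 14.19, 14.36 and 14.57 in vehicle females. In males it read 16.21, 15.54, 14.45, 14.9 and 16.52 with rosiglitazone, against 14.58, 14.13, 14.89, 14.19 and 14.18 with vehicle. The female groups were well apart, and in males the array labelled rosiglitazone male 3 (14.45) fell within the vehicle range. The rise was 1.53 ± 0.19 (log2, SE, adjusted p 5.94e-09, limma). Its close relative Acaa1b rose by 1.55, and since the sequences of the 2 genes are alike, the probes may not tell them apart. Crat, carnitine acetyltransferase, rose by 0.53 ± 0.08, with 13.07 or more on each of the 10 rosiglitazone arrays and 12.70 to 13.03 on the vehicle arrays, without overlap. These 3 were the peroxisomal genes that passed the test, out of 22 tested with a median difference of 0.12. The called share was 13.6%, against 1.72% of all tested genes. Acaa1a and Acaa1b count as 2 of these genes, though their probes may measure the same signal. All gene lists here and below were chosen with earlier results of these data known, so their called shares are descriptions and not tests.

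Among 24 genes of mitochondrial fatty acid oxidation and ketone formation, Cpt1c was the 1 that passed (4.2% called, against 1.72% of all tested genes). The list median was 0.06. Acaa2, the mitochondrial thiolase, gave 0.53 with an adjusted p of 0.0751, and Cpt1a, the enzyme that admits fatty acids to mitochondria in most tissues, gave -0.09. None of 23 genes of sterol and fatty acid synthesis passed the test (median 0.04, smallest adjusted p 0.21), and none of 28 oxidative phosphorylation genes (median 0.01, smallest adjusted p 0.176). At an unadjusted p under 0.05, 3 genes of each of these last lists passed, as did 11.4% of all tested genes.

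The list of PPAR-gamma targets and of lipid droplet genes had 29 tested members, of which 4 rose, none fell, 22 were above 0 and the median was 0.43. The called share was 13.8%, against 1.72% of all tested genes, of which 0.873% rose. The list mean was 9.22, 9.04 and 9.44 on rosiglitazone female 3, male 2 and male 4, the arrays with a raised adipocyte list. On the other 7 rosiglitazone arrays it was 7.94 to 8.72, and on the vehicle arrays 8.03 to 8.45. The part of fat cells in the median of the list was not tested. Plin2, which codes for the coat protein of lipid droplets, read 13.37, 13.83, 12.82, 13.12 and 12.97 in rosiglitazone females, against 12.22, 12.85, 11.98, 12.11 and 12.05 in vehicle females. In males it read 13.27, 12.69, 12.72, 12.99 and 13.71 with rosiglitazone, against 12.05, 12.01, 11.82, 11.99 and 12.03 with vehicle. Vehicle female 2 overlapped the rosiglitazone females, the males were apart, and the rise was 1.04 ± 0.17 (log2, SE, adjusted p 1.54e-05, limma). Fabp4, a carrier of fatty acids inside cells, rose by 1.12 ± 0.24, with 14.46 to 16.36 on the rosiglitazone arrays and 13.33 to 14.88 on the vehicle arrays. Fat cells also express Fabp4: on the 3 rosiglitazone arrays with a raised adipocyte list, where the fat cell hormone gene Adipoq read 10.65, 9.18 and 11.82, Fabp4 read 16.18, 15.50 and 14.86, while on the other 7 rosiglitazone arrays Adipoq read 4.72 to 5.26 and Fabp4 14.46 to 16.36. Angptl4, a secreted inhibitor of lipoprotein lipase, rose by 0.83, and Dgat2, which makes triglyceride, by 0.51. The calls of Angptl4 and Dgat2 were lost without male 3 and female 4 (adjusted p 0.0588 and 0.059), which leaves 2 risen genes in the list. The fatty acid transporter gene Cd36 gave 1.17 with an adjusted p of 0.483 and was highest, at 10.53, on rosiglitazone male 4.

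**Figure D2:**
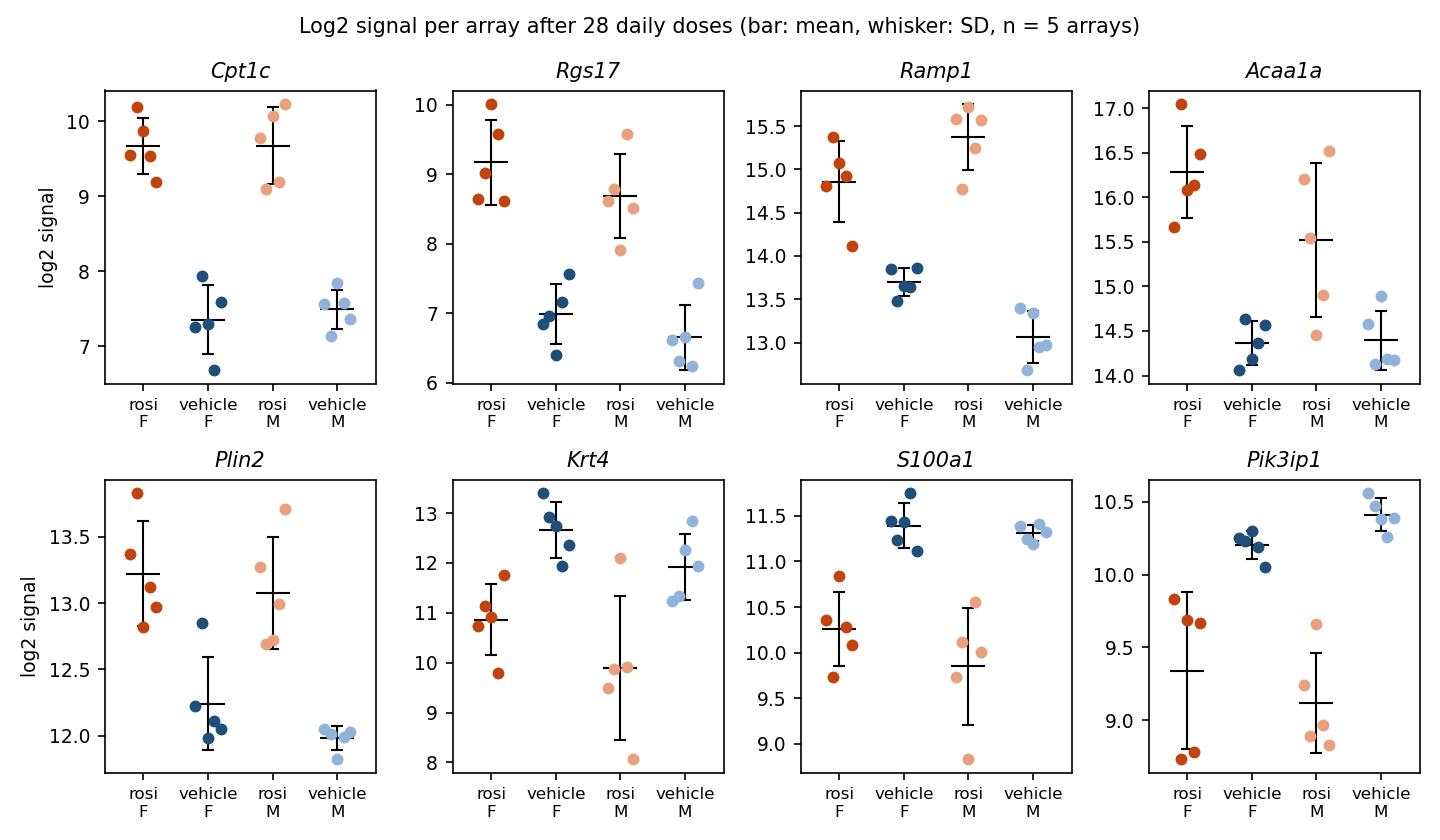
Log2 signal of 8 genes on each array, rosiglitazone left of vehicle in females (F) and males (M), with the mean and SD of 5 arrays. Cpt1c, Rgs17 and Ramp1 are higher on all 10 rosiglitazone arrays, while S100a1 and Pik3ip1 are lower on all 10.

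Pparg, the gene of the receptor, had a mean difference of -0.32 ± 0.13 (log2, SE, adjusted p 0.285, limma), with 13.96 to 14.52 on the rosiglitazone arrays and 14.43 to 15.02 on the vehicle arrays, and 7 of the 10 rosiglitazone arrays lay below every vehicle array. At 90 days Pparg fell by 0.63 (adjusted p 0.0024, limma), and at 3 days it gave 0.12 (0.661). The test of 28 minus 90 days gave 0.31 ± 0.19 (SE, adjusted p 0.843). The partner gene Rxra gave 0.19 ± 0.28. None of 15 PPAR, RXR and coregulator genes passed the test, Rxrb having the smallest adjusted p (0.0841, difference -0.30). At an unadjusted p under 0.05, 2 of them did, as did 11.4% of all tested genes.

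Ttr and Rbp7 were the called members of 15 tested retinoid genes (13.3%, against 1.72% of all tested genes). Both of them rose, and the list median was 0.05. Ttr codes for the plasma carrier of thyroid hormone and of the retinol-binding protein. It read 11.69, 12.27, 12.2, 12.27 and 11.35 in rosiglitazone females, against 9.19, 9.68, 10.54, 10.76 and 10.12 in vehicle females, and 12.12, 11.15, 11.73, 11.02 and 11.96 in rosiglitazone males, against 10.44, 8.47, 8.91, 8.95 and 10.3 in vehicle males. The groups were apart in both sexes and the rise was 2.04 ± 0.33 (log2, SE, adjusted p 1.87e-05, limma). Rbp7, a retinoid-binding protein of the cytoplasm, rose by 1.75 ± 0.22, with 13.68 to 16.30 on the rosiglitazone arrays and 12.40 to 13.19 on the vehicle arrays, again apart. Its highest value belonged to male 3, and without male 3 and female 4 the rise was 1.53.

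Of 28 tested genes of drug metabolism and oxidative stress, 5 rose and none fell (17.9% called, against 1.72% of all tested genes), with a median of 0.33, 0.13 in females and 0.55 in males. Akr1b8, an aldo-keto reductase that reduces aldehydes, had the largest rise of the called genes, 2.95 ± 0.56 (log2, SE, adjusted p 0.000383, limma), and the most uneven values. It read 13.44, 14.08, 14.7, 13.87 and 15.05 in rosiglitazone males, against 10.69, 9.9, 5.8, 10.82 and 10.36 in vehicle males, without overlap. In females it read 14.14, 8.17, 12.66, 13.59 and 12.8 with rosiglitazone, against 11.08, 13.43, 10.47, 9.39 and 11.06 with vehicle, where rosiglitazone female 2 was the lowest of both groups and vehicle female 2 lay among the rosiglitazone arrays. The difference was 4.72 in males and 1.18 in females (adjusted p 0.000106 and 0.722), and the test of the difference between the sexes gave an adjusted p of 0.31. Ces2c, a carboxylesterase, rose by 1.31 ± 0.32, with 9.82 to 11.76 on the rosiglitazone arrays and 8.52 to 10.17 on the vehicle arrays. The others were Hmox1, heme oxygenase (1.18), Cyp3a18, a cytochrome P450 of the CYP3A family (1.15), and Por, which passes electrons to the P450 enzymes (0.57). Hmox1 read 11.25 on male 3 and 7.32 to 9.24 on the other rosiglitazone arrays. The calls of Hmox1, Cyp3a18 and Por were lost without male 3 and female 4 (adjusted p 0.0851, 0.0723 and 0.189).

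Further rises took in Mmp24, a membrane-bound metalloproteinase (2.10), Rundc3a, a RUN-domain protein of neurons (1.74), Tuba8, an alpha-tubulin (1.57), and Hspa1b, an inducible heat shock protein (1.5). Mmp24 was at 6.84 to 9.90 on the rosiglitazone arrays, against 5.56 to 7.30 on the vehicle arrays, and Rundc3a at 8.86 to 10.81 against 7.60 to 8.41. Hspa1b had an adjusted p of 0.0477, and leaving out any 1 of 14 of the 20 arrays ended its call, with an adjusted p of up to 0.15. The other risen genes whose groups were apart in both sexes, named here after their values were seen, were Gkn1, a secreted protein of the stomach lining (1.43), the membrane transporter gene Slc4a11 (1.36), the protease inhibitor gene Cst6 (1.21), the translation factor gene Eif5a2 (1.08), Ptgs1, cyclooxygenase of the constitutive kind (0.60), Lysmd2 (0.59), and Hsd17b11, a dehydrogenase found on lipid droplets (0.56). Gkn1 ran from 11.05 to 12.67 on the rosiglitazone arrays and from 9.53 to 10.89 on the vehicle arrays, and Cst6 from 14.41 to 15.54 and from 13.21 to 14.27.

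Krt4, a keratin typical of moist layered epithelia, had the largest fall of the called genes. Its log2 signals were 10.74, 11.13, 10.91, 9.79 and 11.75 in rosiglitazone females, against 13.4, 12.93, 12.73, 11.93 and 12.35 in vehicle females, and 9.5, 9.88, 12.09, 9.91 and 8.06 in rosiglitazone males, against 11.24, 11.33, 12.26, 12.84 and 11.94 in vehicle males. The females were apart, and in males rosiglitazone male 3 (12.09) lay within the vehicle range while the other 4 lay below it. Krt4 fell by 1.92 ± 0.38 on the log2 scale (SE, adjusted p 0.000775, limma), 3.78-fold. It was 1 of 18 squamous and cornified genes, of which 2 fell and 2 rose (22.2% called, against 1.72% of all tested genes). The list median was -0.08. Krt1, a keratin of the upper epidermis, fell by 0.79 from a low signal. Ivl, involucrin, a building block of the cornified envelope, rose by 1.45, with 7.98 to 10.80 on the rosiglitazone arrays and 7.33 to 10.28 on the vehicle arrays, and Calml3, a calmodulin-like protein of epithelia, rose by 0.89. Without male 3 and female 4, Krt4 and Ivl stayed past the threshold (adjusted p 0.000438 and 0.0193) and Krt1 and Calml3 did not (0.0957 and 0.127). The call of Ivl was lost in turn without vehicle female 4, rosiglitazone female 2, rosiglitazone male 1 or rosiglitazone male 5 (adjusted p up to 0.0674).

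Other keratins moved less. Krt19 was the 1 called member of 24 umbrella cell and urothelial differentiation genes, rising by 0.61 ± 0.16 (log2, SE, adjusted p 0.027, limma), and Krt15 was the 1 called member of 12 basal cell genes, falling by 0.61 ± 0.17 (adjusted p 0.0374). Krt15 was at 15.94 to 17.28 on the rosiglitazone arrays and 16.80 to 17.33 on the vehicle arrays, with 9 of 10 rosiglitazone arrays below every vehicle array, and its call was lost without male 3 and female 4 (adjusted p 0.204). The called shares were 4.2% and 8.3%, against 1.72% of all tested genes, and the list medians were 0.06 and 0.13. The uroplakins gave differences of 0.07 for Upk1a, -0.00 for Upk1b, -0.02 for Upk2 and 0.04 for Upk3a, and Krt20, a keratin of umbrella cells, gave 0.26 (adjusted p 0.682). None of 25 cell cycle genes passed the test (median 0.07, smallest adjusted p 0.156, limma). At an unadjusted p under 0.05, 2 did, as did 11.4% of all tested genes.

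S100a1, a calcium-binding protein, was lower on all 10 rosiglitazone arrays. It read 10.36, 9.73, 10.84, 10.28 and 10.08 in rosiglitazone females, against 11.44, 11.24, 11.43, 11.75 and 11.11 in vehicle females, and 9.73, 10.12, 8.83, 10.56 and 10.01 in rosiglitazone males, against 11.39, 11.25, 11.19, 11.41 and 11.32 in vehicle males. The highest rosiglitazone value, 10.84, lay below the lowest vehicle value, 11.11, and the gene fell by 1.30 ± 0.19 (log2, SE, adjusted p 1.7e-06, limma). Pik3ip1, an inhibitor of PI3-kinase, also lay lower throughout, with 8.73 to 9.83 on the rosiglitazone arrays and 10.05 to 10.56 on the vehicle arrays, and fell by 1.08 ± 0.17. Gpt, alanine aminotransferase, was at 8.33 to 10.29 against 10.62 to 11.21 and fell by 1.09 ± 0.22. It was the 1 called gene of 23 in insulin signalling and glucose handling (4.3% called, against 1.72% of all tested genes, median -0.04).

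Among the fallen genes with roles in transcription and the cell scaffold, Pou3f1, a POU-domain transcription factor, fell by 1.26 ± 0.21 (log2, SE, adjusted p 2.34e-05, limma), with 6.09 to 8.49 on the rosiglitazone arrays and 8.36 to 9.22 on the vehicle arrays. Col7a1, the collagen of the fibrils that anchor epithelia to the tissue beneath, fell by 1.10 ± 0.21, with 4.94 to 6.55 against 6.05 to 7.55. Col7a1 moved in scrapings whose fibroblast and matrix list also had a median of -0.69, and the part of the tissue mix in its fall was not tested. Syne4, which links the nucleus to the cytoskeleton in epithelia, fell by 1.10, but its call was lost when any 1 of 11 arrays was left out (adjusted p up to 0.147). Tspan11, a tetraspanin, fell by 1.24, and the mean of its 2 probes gave -0.60 and did not pass the test (adjusted p 0.0905).

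Apoe, a lipoprotein component made by macrophages as well as by other cells, was at 11.89 to 13.90 on the rosiglitazone arrays and 13.12 to 14.50 on the vehicle arrays, and fell by 1.23 ± 0.25 (log2, SE, adjusted p 0.000837, limma). The leukocyte list lay lower in the same scrapings, with means of 8.81 to 9.40 on the rosiglitazone arrays and 9.01 to 9.95 on the vehicle arrays. The list median was -0.63 in females and -0.16 in males, where Apoe gave -1.26 and -1.21. The part of leukocytes in the fall of Apoe was not tested. Me3, a mitochondrial malic enzyme, fell by 1.28 with all arrays, by 0.87 without male 3 (adjusted p 0.0112) and by 0.81 without male 3 and female 4 (0.0336). It read 2.44 on male 3 and 5.44 to 7.57 on the other rosiglitazone arrays. Ckmt1, mitochondrial creatine kinase, fell by 1.22, a call that was lost without male 3 and female 4 (adjusted p 0.105). Ddah2, of a family that breaks down methylated arginine, fell by 1.22, and its relative Ddah1, named after its value was seen, by 0.85. Rpesp fell by 1.24, Dapl1 by 1.09 and Cabcoco1 by 1.08, Cabcoco1 no longer past the threshold without male 3 and female 4 (adjusted p 0.0982). Any 1 of 6 arrays left out ended the call of Dapl1 (adjusted p up to 0.0939), and any 1 of 7 that of Cabcoco1 (up to 0.114). Clic3, an intracellular chloride channel protein, fell by 1.06 as the 1 called gene of 22 in water, ion and urea transport. The called share of that list was 4.5%, against 1.72% of all tested genes, and its median was -0.01.

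The other fallen genes whose groups were apart in both sexes, named after their values were seen except Cpne3 and Plaat3, were Plaat3, a phospholipase and acyltransferase (-1.07), Cfhr4, related to complement factor H (-1.04), Nme4, a mitochondrial nucleoside diphosphate kinase (-1.03), Cracr2b, a regulator of calcium entry (-0.96), the ubiquitin-conjugating enzyme gene Ube2k (-0.62), and Cpne3, a calcium-dependent membrane-binding copine (-0.54). Plaat3 was at 12.68 to 14.41 on the rosiglitazone arrays and 14.36 to 14.73 on the vehicle arrays. Cpne3 was at 10.89 to 11.83 against 11.88 to 12.25, close but without overlap.

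**Figure D3:**
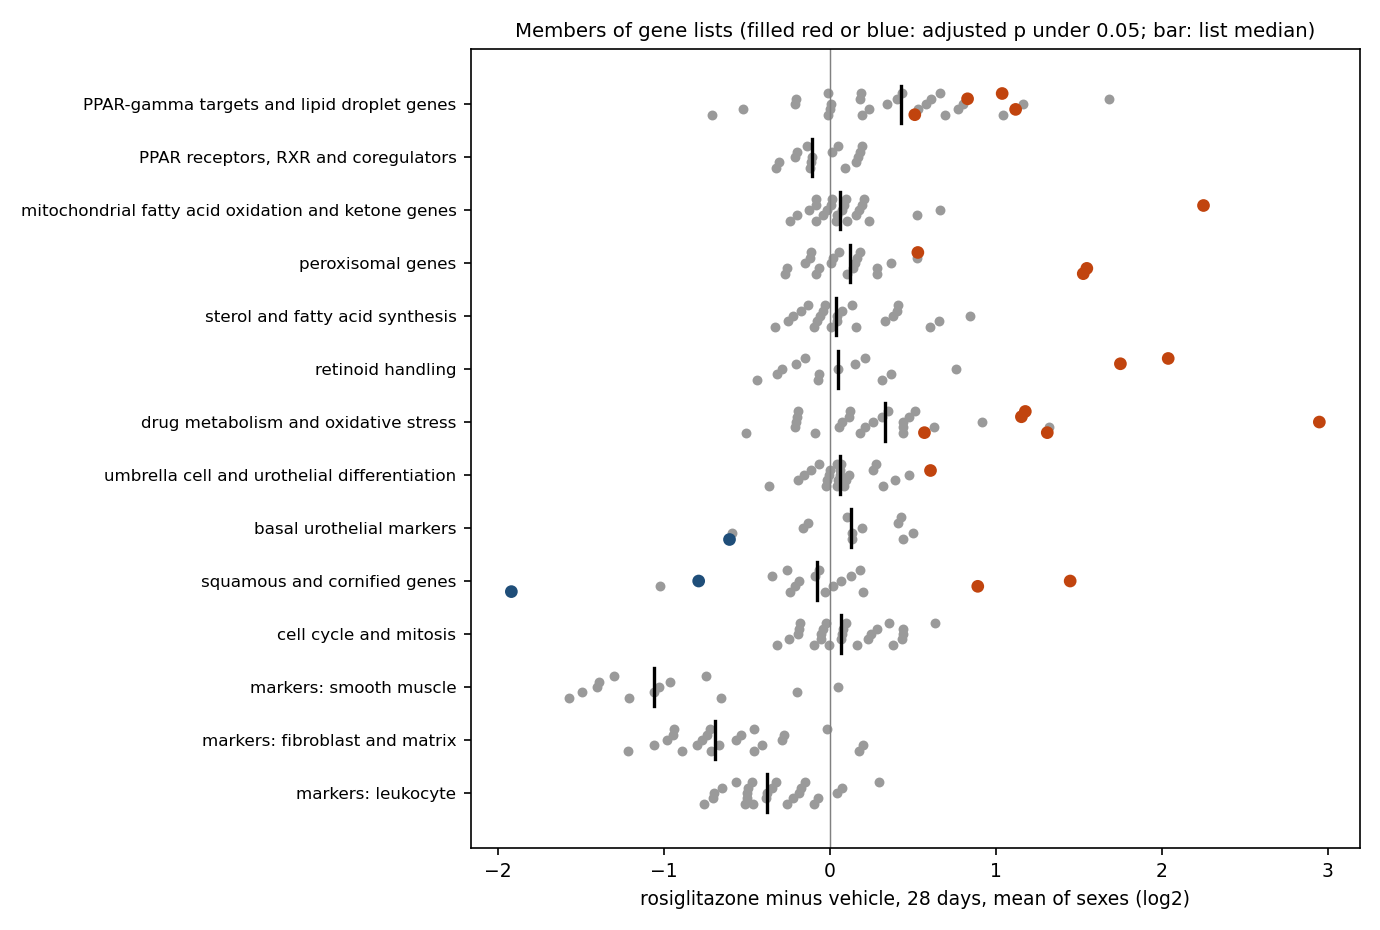
Rosiglitazone minus vehicle at 28 days (log2, horizontal axis) for the tested members of 14 gene lists, 1 point per gene, with the list median as a bar. Called genes are larger and coloured, red for risen and blue for fallen. Single members stand far from their list medians, as Cpt1c at 2.25 and Krt4 at -1.92, and the smooth muscle list, with no called member, has the lowest median (-1.06).

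The remaining lists held few or no called genes. Gadd45a, a stress-induced growth arrest gene, rose by 0.47 as the 1 called member of 13 p53 targets (median 0.10). The called share was 7.7%, against 1.72% of all tested genes, and the call was lost without male 3 and female 4 (adjusted p 0.204, limma). None of 8 aryl hydrocarbon receptor targets passed (median 0.00, smallest adjusted p 0.352), none of 18 immediate-early and EGF family genes (0.05 and 0.129), none of 18 chemokine and inflammation genes (0.03 and 0.33), none of 20 interferon-stimulated genes (0.17 and 0.287) and none of 16 clock genes (0.01 and 0.322). In these 5 lists, 2, 3, 2, 2 and 3 genes passed an unadjusted p under 0.05, as did 11.4% of all tested genes. None of 12 endothelial genes was called (median -0.05), nor any of 11 skeletal muscle, 6 erythrocyte, 8 nerve and 3 male accessory gland genes, where 1, 1, 0, 1 and 0 passed an unadjusted p under 0.05. Several of the calls with an adjusted p near 0.05 rested on single arrays: leaving out vehicle male 2 ended those of Dgat2 and Cyp3a18 (adjusted p 0.0631 for both), any 1 of 8 arrays those of Krt19 and Krt15 (up to 0.0632 and 0.115), and any 1 of 5, 11, 11 and 12 arrays those of Calml3, Krt1, Por and Gadd45a (up to 0.0722, 0.134, 0.155 and 0.178).

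The promoter sequences of some of the genes described above are shown because PPAR-gamma and RXR bind paired copies of the letters AGGTCA. They come from RefSeq on the rat build GRCr8, cover 250 bases before to 50 after a gene's start, and are written 5′ to 3′ on the gene's strand with AGGTCA or its reverse complement in capitals. Windows with a copy are more frequent among those shown than among all windows, whose shares are given after the sequences. The Rgs17 window lies at chr1:44729896-44730195, minus strand, and holds no copy.
Rgs17: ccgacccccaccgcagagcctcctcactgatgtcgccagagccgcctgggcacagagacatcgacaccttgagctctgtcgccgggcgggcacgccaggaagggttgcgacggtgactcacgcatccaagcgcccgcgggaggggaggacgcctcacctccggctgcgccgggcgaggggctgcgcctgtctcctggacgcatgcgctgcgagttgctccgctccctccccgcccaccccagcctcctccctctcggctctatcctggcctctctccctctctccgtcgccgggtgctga
A Plin2 window at chr5:106228488-106228787, minus strand, holds no copy and is not shown. The Plin2 window shown lies at chr5:106228969-106229268, minus strand, and holds no copy.
Plin2: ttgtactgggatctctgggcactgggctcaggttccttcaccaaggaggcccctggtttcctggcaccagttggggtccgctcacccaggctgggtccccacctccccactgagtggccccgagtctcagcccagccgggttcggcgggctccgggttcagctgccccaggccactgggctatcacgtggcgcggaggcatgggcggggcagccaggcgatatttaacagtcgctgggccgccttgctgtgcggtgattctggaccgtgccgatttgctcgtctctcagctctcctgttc
The Ivl window lies at chr2:180846529-180846828, minus strand, and holds 2 copies.
Ivl: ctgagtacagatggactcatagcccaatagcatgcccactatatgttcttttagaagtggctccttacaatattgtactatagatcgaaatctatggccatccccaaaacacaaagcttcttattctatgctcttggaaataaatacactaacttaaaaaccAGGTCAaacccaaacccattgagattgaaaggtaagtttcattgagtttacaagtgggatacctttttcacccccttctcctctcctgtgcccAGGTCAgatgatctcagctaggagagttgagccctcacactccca
The Tuba8 window lies at chr4:156112022-156112321, plus strand, and holds 1 copy.
Tuba8: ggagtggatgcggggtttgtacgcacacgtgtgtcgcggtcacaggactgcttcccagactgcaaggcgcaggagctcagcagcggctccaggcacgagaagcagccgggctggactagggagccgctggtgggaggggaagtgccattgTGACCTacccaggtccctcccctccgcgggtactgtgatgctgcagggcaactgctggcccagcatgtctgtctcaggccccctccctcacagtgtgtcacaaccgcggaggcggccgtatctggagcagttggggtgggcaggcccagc
The Krt4 window lies at chr7:134930664-134930963, minus strand, and holds no copy.
Krt4: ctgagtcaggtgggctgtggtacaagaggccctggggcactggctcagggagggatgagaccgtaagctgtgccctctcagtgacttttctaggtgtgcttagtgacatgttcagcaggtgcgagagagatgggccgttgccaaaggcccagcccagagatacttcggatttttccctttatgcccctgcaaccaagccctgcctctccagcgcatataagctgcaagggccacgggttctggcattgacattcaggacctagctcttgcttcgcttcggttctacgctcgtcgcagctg
The Col7a1 window lies at chr8:118483114-118483413, plus strand, and holds 1 copy.
Col7a1: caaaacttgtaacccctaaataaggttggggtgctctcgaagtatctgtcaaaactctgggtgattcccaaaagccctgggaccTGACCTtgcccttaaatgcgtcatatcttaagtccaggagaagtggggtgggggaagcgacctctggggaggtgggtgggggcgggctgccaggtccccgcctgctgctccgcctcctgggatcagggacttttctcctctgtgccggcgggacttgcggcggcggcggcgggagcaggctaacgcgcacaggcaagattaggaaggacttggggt

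A RefSeq window was at hand for 86 of the 111 risen genes, 81 of the 108 fallen genes and 10248 of the 12713 tested genes, some of them with more than 1 window. AGGTCA stood on either strand in 7 of 90 windows of risen genes (7.78%), in 7 of 85 windows of fallen genes (8.24%) and in 1416 of 11059 windows of all tested genes (12.8%). The risen genes with a copy were Cela1, Ctps2, Gadd45a, Ivl, Por, Tuba8 and Zc3hav1, and the fallen genes with a copy were B3gnt4, Col7a1, Plaat3, Prom1, Rpl34, Stat5a and Wiz. The paired form with 1 base between the copies, searched on both strands, was in none of the windows of risen or fallen genes and in 2 of all windows (0.0181%). These are letters in a short window, and elements farther from the start were not searched.

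The sexes were tested apart with 5 rosiglitazone and 5 vehicle animals each. In females 46 genes were called (0.362%), 27 of them risen (0.212%) and 19 fallen (0.149%), and in males 128 (1.01%), 59 risen (0.464%) and 69 fallen (0.543%). Leaving out a single array gave as few as 11 calls in females (without rosiglitazone female 4 or vehicle female 4) and as few as 33 in males (without rosiglitazone male 3). Both sexes called 19 genes, 14 risen and 5 fallen. Of the 27 genes risen in females 25 had a positive difference in males, as did 48% of all tested genes, and of the 19 fallen in females 16 had a negative one, as did 52%. Of the 59 genes risen in males 46 were positive in females, against 52.4% of all tested genes, and of the 69 fallen in males 45 were negative, against 47.6%.

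A direct test of the effect in females minus the effect in males called 11 genes (0.0865%), 4 higher in females (0.0315%) and 7 lower (0.0551%). In each of the 11 the effects had opposite signs. Rnf182, a ubiquitin ligase of the RING type, gave -0.64 ± 0.22 in females and 1.10 ± 0.22 in males (log2, SE), a difference of -1.74 with an adjusted p of 0.00167 (limma). It read 5.6, 5.57, 6.15, 5.37 and 5.55 in rosiglitazone females, against 6.13, 6.12, 6.21, 6.63 and 6.33 in vehicle females, and 5.63, 6.09, 7.33, 6.45 and 6.74 in rosiglitazone males, against 4.7, 5.84, 5.31, 5.67 and 5.24 in vehicle males, with an overlap in each sex and a single array, rosiglitazone male 3, highest of all. Etf1, a translation release factor, gave -0.24 in females and 0.62 in males, and rosiglitazone male 3 was its highest array at 14.19. Ehd3, of a family that shapes recycling endosomes, gave 0.73 in females and -0.52 in males. Rnf182, Etf1 and Ehd3 kept an adjusted p under 0.05 whichever of the 20 arrays was left out, and without male 3 and female 4 it was 0.0427 for Rnf182 and 0.113 for Etf1 and Ehd3. Of the 11 genes, 2 were still called without male 3 and female 4, Rnf182 and Klhl21 (0.71 in females and -0.35 in males). With the spread estimated from the 20 arrays alone, none passed. Fam178b gave 0.72 in females and -0.75 in males, Zfp322a -0.77 and 0.72, Lsm3 -0.39 and 0.50, and Drg1 -0.41 and 0.44. Ehd3 read 4.1 to 5.94, RGD1560314 3.58 to 5.84, Fam178b 4.62 to 6.7 and Zfp322a 4.63 to 6.96. These low signals, like those of Rnf182, lay near the lowest mean that passed the signal filter, 5.26. Klhl21, Mrps16, Ilkap, Drg1, Etf1 and Lsm3 read 9.6 or more.

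**Figure D4:**
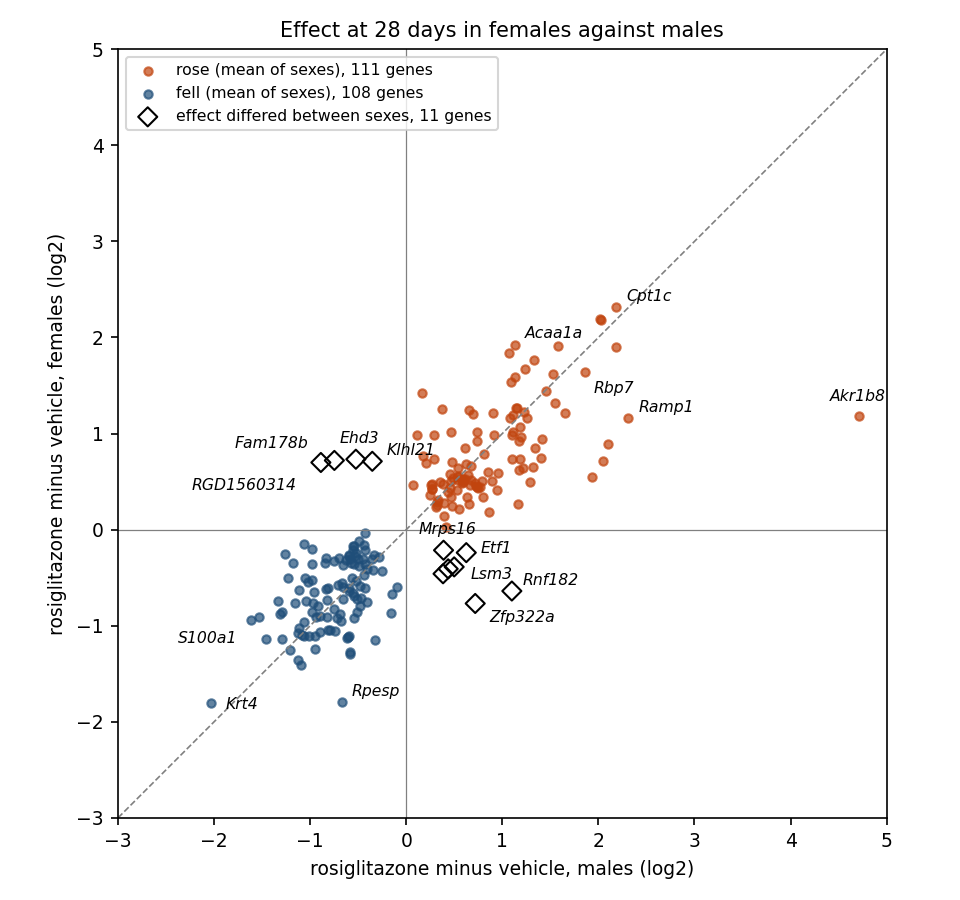
Rosiglitazone minus vehicle at 28 days in females (vertical axis) against males (horizontal axis), both log2, for the 111 risen and 108 fallen genes and the 11 genes whose effect differed between the sexes, which include RGD1560314, Mrps16, Ilkap and Drg1. The dashed line marks equal effects. Akr1b8 lies far to the right, at 4.72 in males and 1.18 in females, and the 11 open diamonds lie in the quadrants of opposite sign.

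Rats dosed for 3 or 90 days, each with vehicle animals of their own, gave the same contrast at other times. At 3 days 41 genes were called (0.323%), 29 risen (0.228%) and 12 fallen (0.0944%), and at 90 days 244 (1.92%), 69 risen (0.543%) and 175 fallen (1.38%). Of the 111 genes risen at 28 days, 99 had a positive difference at 3 days (89.2%, against 55.9% of all tested genes) and 98 at 90 days (88.3%, against 42.6%), and 13 and 25 of them were called there. Of the 108 fallen genes, 88 were negative at 3 days (81.5%, against 44.1%) and 100 at 90 days (92.6%, against 57.4%), and 2 and 36 were called. The risen genes had a median difference of 0.26 at 3 days, 0.70 at 28 days and 0.36 at 90 days, and the fallen genes of -0.16, -0.70 and -0.43. The genes were chosen by their adjusted p at 28 days, a choice that favours large values at that time. The medians therefore do not compare the times on equal terms.

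No gene passed the test of the effect at 28 days minus that at 3 days (0.0% called, smallest adjusted p 0.194) or at 28 minus 90 days (0.0% called, smallest adjusted p 0.266) in limma. At an unadjusted p under 0.05, 943 and 753 of the 12713 genes passed. The values by time are therefore given without a claim that they differ. Acaa1a gave 1.44, 1.53 and 0.98 at 3, 28 and 90 days, and Fabp4 1.08, 1.12 and 1.02. Rgs17 gave 0.54, 2.10 and 2.58, and Tuba8 -0.13, 1.57 and 1.46. Ramp1 gave 0.69, 1.74 and 0.75, and was among the genes with the smallest p in both tests, with differences of 1.05 ± 0.26 for 28 minus 3 days and 0.98 ± 0.26 for 28 minus 90 days (SE, adjusted p 0.194 and 0.434). Cpt1c gave 1.05, 2.25 and 1.63, passing the test at each time. Among the fallen genes, Krt4 gave -0.15, -1.92 and -1.20, Pou3f1 -0.38, -1.26 and -1.73, and Apoe -0.87, -1.23 and -1.04. Pik3ip1 gave -0.33, -1.08 and -0.00, and Plaat3 -0.48, -1.07 and -0.16. The genes called at all 3 times were Cpt1c, Rbp7, Acaa1b, Acaa1a, Gkn1, Ces2c and Fabp4, all of them risen.

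Other genes with small p in these tests, none of which passed, are given as values. For the effect at 28 days minus that at 3 days the differences were 0.92 for the sialyltransferase gene St3gal4, 1.18 for the exchange factor gene Ngef, 1.15 for the olfactory receptor gene Or4a80, -0.55 for Cpne3, -0.45 for C10h17orf49, -0.74 for Porcn, which acylates Wnt proteins, -0.77 for Acss1, mitochondrial acetyl-CoA synthetase, and -0.91 for Spry1, an inhibitor of growth factor signals. For 28 minus 90 days they were 0.96 for Baiap2, 1.65 for Ahrr, the repressor of the aryl hydrocarbon receptor, 0.59 for Trim25, -1.08 for Pik3ip1, -0.91 for Plaat3, -0.64 for Smurf2, -0.37 for Cox4i1 and -0.66 for Ttc7b. Against vehicle, Ahrr gave -0.47 at 28 days (adjusted p 0.595) and -2.12 at 90 days (adjusted p 1e-06, limma), so its positive difference is not a rise at 28 days.

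**Figure D5:**
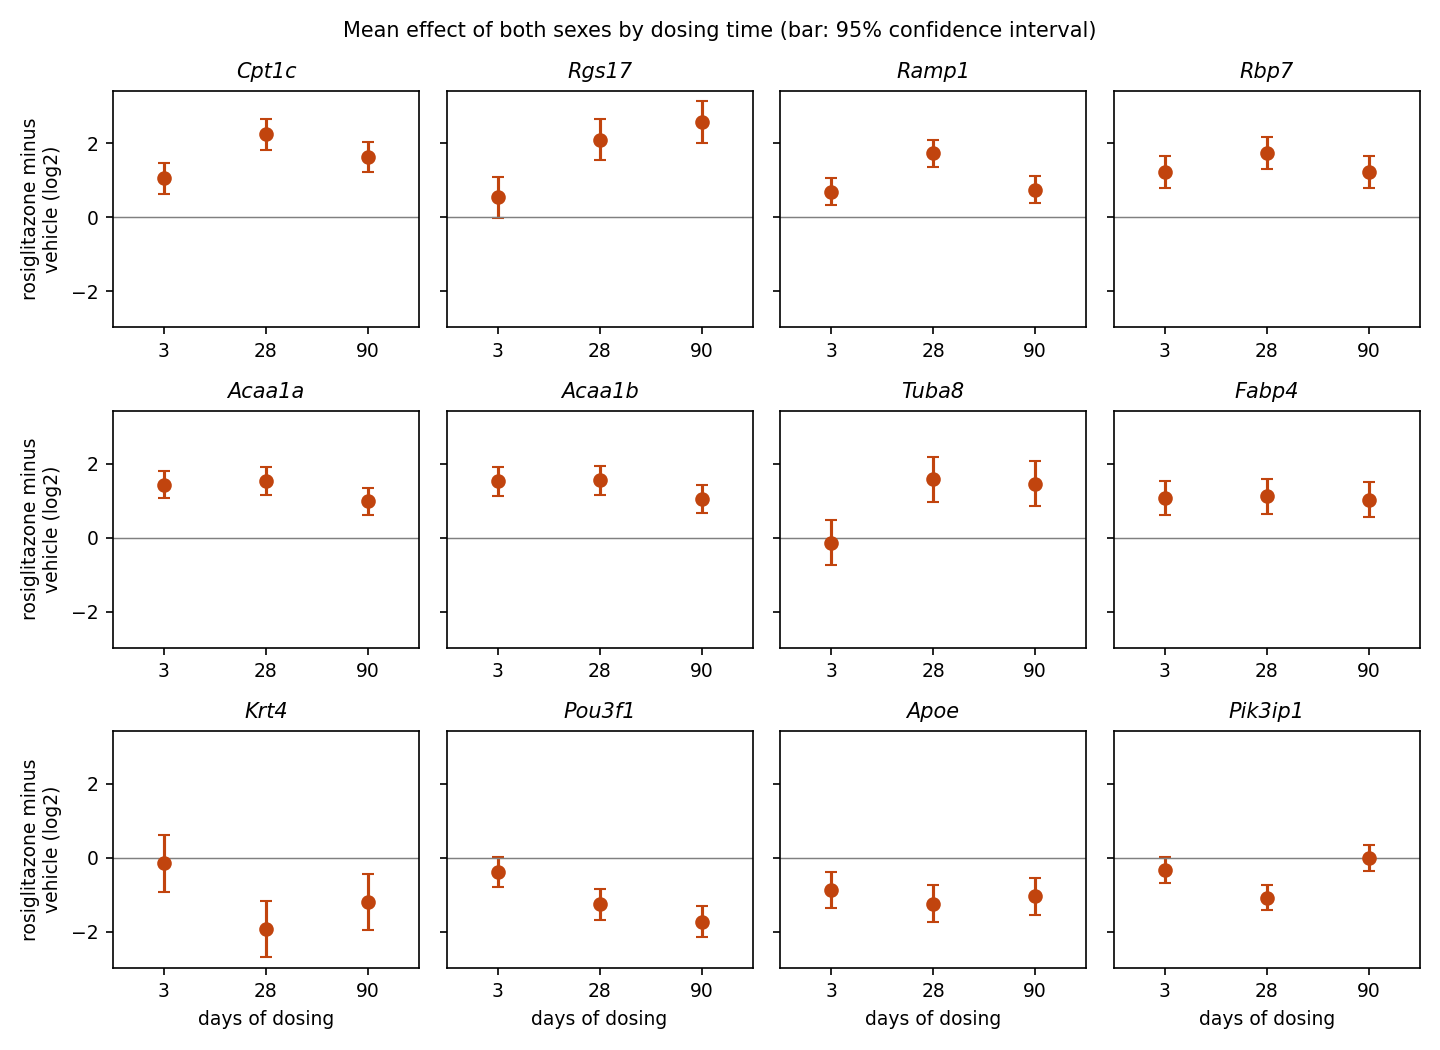
Rosiglitazone minus vehicle (log2, vertical axis, mean of both sexes with its 95% confidence interval) after 3, 28 and 90 days of dosing for 8 risen and 4 fallen genes. Acaa1a and Fabp4 are raised at each time, and Rgs17 and Tuba8 have small values at 3 days. Most of the genes shown are farthest from 0 at 28 days, the time at which they were chosen.

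Rats given pioglitazone, another thiazolidinedione, for 28 days were compared with the same vehicle animals, so the differences share their control arrays, and the doses differ from that of rosiglitazone. Against those animals 44 genes (0.346%) were called at 16 mg/kg/day and 71 (0.558%) at 63 mg/kg/day, of which 44 rose (0.346%) and 27 fell (0.212%) at the higher dose. The males at 16 mg/kg/day had 4 arrays. Female 5 at 16 and male 4 at 63 mg/kg/day had a median correlation with the other arrays of 0.861 and 0.927, and both were kept. Whether the counts differ between the drugs was not tested. The values of the drugs are set side by side without a test of rosiglitazone against pioglitazone. Rosiglitazone at 10 mg/kg/day gave 2.25 for Cpt1c, where pioglitazone gave 1.32 at 16 and 1.64 at 63 mg/kg/day. For Rgs17 the 3 values, in the same order, were 2.10, 1.6 and 2.0, for Akr1b8 2.95, 2.69 and 2.81, and for Plin2 1.04, 0.68 and 1.07. Acaa1a gave 1.53, 1.22 and 1.47, and Fabp4 1.12, 0.97 and 1.02. Slc4a11 had the values 1.36, 0.31 and 0.86, and Gkn2, a relative of Gkn1, 1.43, 0.70 and 0.55. Of the genes fallen with rosiglitazone, Krt4 gave -1.92, -0.94 and -1.6, S100a1 -1.30, -0.63 and -0.85, Pou3f1 -1.26, -1.23 and -0.88, and Apoe -1.23, -0.88 and -0.76. Against vehicle, Pou3f1 was called at both pioglitazone doses and Apoe at neither (adjusted p 0.134 and 0.234, limma). Krt4 and S100a1 were called at 63 but not at 16 mg/kg/day (adjusted p 0.357 and 0.159 at 16 mg/kg/day, limma).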

How the data were processed

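Messenger RNA of scraped urothelium was measured on 1-colour Agilent arrays, 1 animal on each. The authors deposited log2 signals, already normalized. Limma is named in the submitters' processing notes with no version, and the normalization method, slides and scan dates are not given in the sources used here. Precision is limited by the 5 arrays in a group. P-values weigh a difference against the spread between animals within groups, estimated from all 116 arrays that passed quality control.

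Of 30367 probes, 20369 had 1 gene symbol in the platform annotation. Symbols were updated through RefSeq accessions (17245 matched). The probe with the highest mean stood for each of 16951 genes, and the lowest 25% by mean signal was left out, leaving 12713. A mean for each of 24 groups was fitted to the 116 arrays that passed quality control with limma 3.58.1 in R 4.3.3 (lmFit, eBayes with a trend). The effect was rosiglitazone minus vehicle within a sex, averaged over sexes. Genes were called at a Benjamini-Hochberg adjusted p under 0.05 over all tested genes. The code was tested on simulated data.

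Genes were named by rule: the 15 largest called rises and falls of the same sign in both sexes, in each list the up to 4 genes of smallest p, and for the tests by sex and time the 5 largest called differences in each direction, filled with the smallest p, plus Pparg and Rxra. Genes named outside it (among them Por, Cd36, Cpt1a, Adipoq, the uroplakins, Ddah1 and Gkn2) were chosen after their values were seen. Members and gene lists were chosen with earlier results of these data known.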

Additional observations from a re-analysis of the deposited data

Results flagged for a closer look

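Single arrays stood far from the other 4 of their group, past Dixon's 95% bound of 0.71 for 5 samples, in 13 of 188 combinations of 47 named genes with 4 groups; chance flags about 1 in 20. Akr1b8 read 8.17 on rosiglitazone female 2 and 5.8 on vehicle male 3. Rpesp read 7.42 on rosiglitazone female 4. The other values were on vehicle arrays. On female 2, Gpr115 read 8.25, Ivl 10.28, Ddah2 11.71, Plin2 12.85 and Por 11.12. On male 3, Acaa1b read 15.67 and Plin2 11.82. Tuba8 read 5.95 on female 4, Calml3 11.63 on male 1 and Cabcoco1 6.71 on male 2.

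The effect of rosiglitazone differed between the sexes by a direct test for 11 genes. The effect in females minus that in males was 1.59 for RGD1560314, 1.47 for Fam178b, 1.26 for Ehd3 and 1.06 for Klhl21 on the log2 scale. It was -1.74 for Rnf182, -1.49 for Zfp322a, -0.89 for Lsm3, -0.86 for Etf1, -0.84 for Drg1 and Ilkap and -0.6 for Mrps16.

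Probes without a gene symbol, which the comparisons leave out, also held changes: of 6944 tested, 26 rose and 29 fell with rosiglitazone (0.792% called), against 205 called of 15831 probes with a symbol (1.29%).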

How the results depend on the processing

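No value changed sign under the alternatives run. Of 1643 values of 55 named genes under other settings, 1458 stayed on the same side of the threshold and 185 lost the call. For the mean of both sexes, fitting the 20 arrays alone called 64 risen and 69 fallen genes, and array weights called 330 and 184. Without rosiglitazone male 3 and female 4, an alternative chosen after seeing the data, 68 rose and 49 fell. Leaving out 1 array gave 75 to 153 risen and 68 to 131 fallen genes, with 68 fallen without rosiglitazone female 4. In females, where 46 genes were called, the 20 arrays alone gave 12, array weights 743, the removal of both arrays 22, and leaving out 1 array 11 to 86; the count moved by over 1.5 times without rosiglitazone female 2, 3, 4 or 5 (18, 29, 11 and 86) or vehicle female 1, 3 or 4 (21, 19 and 11). In males, with 128 calls, the same settings gave 29, 71, 34 and 33 to 228; the count moved as far without rosiglitazone male 2, 3 or 4 (228, 33 and 223) or vehicle male 1, 2, 3 or 5 (80, 79, 68 and 61). The difference between the sexes, with 11 calls, gave 0, 53, 3 and 4 to 18, and 6 with the lowest 50% of genes left out. The difference between 28 and 90 days, with none, gave 8 with array weights. The cause of these shifts was not tested, beyond the fewer arrays in some fits.

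Same-numbered animals of the treatments were not treated as pairs in the fit. Of 10 such pairs, 5 had correlated deviations over 0.1 (-0.15 to 0.4) and 2 correlated best with their own number. These correlations do not settle whether the numbers mark pairs. With a replicate block, 99 genes rose and 102 fell, and 200 of the 219 called genes were called again.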
